A study of Drosophila melanogaster with 36 samples.

Results

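The libraries described here hold the small RNAs bound to Ago2 in cells that cannot methylate them, with and without Dora. They are the 3 Ago2-IP libraries of hen1/dora lines and the 3 Ago2-IP libraries of hen1 lines, chosen by their labels, 6 of the 36 libraries of the series. Each library came from its own clonal line of S2, a cell line of Drosophila grown in culture, made with Cas9. All 6 lines lack Hen1, also the ones used as the reference, and the hen1/dora lines lack Dora in addition. No wild-type line enters the main comparison, and a clone's own history cannot be told apart from its genotype beyond what 3 lines show. Later comparisons use total-sRNA libraries of hen1 and hen1/dora lines. They also use Ago1-IP and periodate-treated libraries of wild-type lines and of dora lines, which lack Dora, and all of these lines have Hen1. FLAG-tagged Ago2 was expressed from a transfected plasmid and captured with anti-FLAG beads, and the RNA was untreated, so these libraries report on small RNAs in the tagged protein and not on endogenous Ago2. The question was whether small RNAs in Ago2 that carry no terminal methyl group depend on Dora.

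MicroRNAs (miRNAs) and small interfering RNAs (siRNAs) guide Argonaute proteins to target RNAs. In flies most miRNA guides are loaded into Ago1, whereas siRNAs, which Dicer-2 cuts from long double-stranded RNA of hairpins, overlapping antisense mRNAs and transposons, are loaded mostly into Ago2, together with some miRNA strands. Hen1 is the methyltransferase that adds a 2′-O-methyl group to the 3′ end of small RNAs in Ago2. Dora, the fly counterpart of the mammalian ZSWIM8, is part of a ubiquitin ligase that acts in target-directed miRNA degradation, in which a target with extensive pairing leads to decay of the Argonaute protein and so of its miRNA.

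The miRNAs followed most closely were the 10 that the study called Dora-sensitive in total-sRNA libraries of wild-type (WT) and dora lines, libraries that are not used here. Besides miR-7-5p, they are the guides listed here. Their sequences are shown because pairing to a guide is what selects it in this pathway, and because guides with the same seed can be compared. The sequences are those of RefSeq on the dm6 genome, with the seed (bases 2 to 8) in capitals.
miR-9b-5p: uCUUUGGUgauuuuagcuguaug
miR-9c-5p: uCUUUGGUauucuagcuguaga
miR-279-3p: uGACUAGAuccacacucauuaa
miR-996-3p: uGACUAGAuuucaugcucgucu
miR-12-5p: uGAGUAUUacaucagguacuggu
miR-190-5p: aGAUAUGUuugauauucuugguug
miR-277-3p: uAAAUGCAcuaucugguacgaca
miR-999-3p: uGUUAACUguaagacugugucu
miR-1012-3p: uUAGUCAAagauuuuccccauag

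miR-9b-5p and miR-9c-5p have the same seed, as do miR-279-3p and miR-996-3p, and each pair diverges after it. miR-9b-5p (chr2L:16698758-16698780, plus strand) and miR-9c-5p (chr2L:16697936-16697957, plus strand) lie in introns of grp, a checkpoint kinase gene. miR-12-5p (chrX:15509479-15509501, plus strand) lies in an intron of Gmap, and miR-190-5p (chr3L:8571822-8571845, plus strand) in an intron of rhea, which encodes talin. miR-277-3p (chr3R:10100080-10100102, plus strand) lies in an exon of the noncoding gene lncRNA:CR43459. miR-279-3p (chr3R:29215651-29215672, plus strand) and miR-996-3p (chr3R:29217244-29217265, plus strand) lie in exons of the noncoding gene lncRNA:CR31044. miR-999-3p (chr3R:21798249-21798270, minus strand) lies in an intron of CASK. miR-1012-3p (chr3R:26861349-26861371, minus strand), which comes from a mirtron, a spliced intron that folds into a miRNA precursor, lies in an intron of Lerp.

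The deposited table counts the reads of 310 miRNAs, and the genes knocked out are not measured in it. There were 423071 to 508914 miRNA reads per hen1/dora library and 344324 to 487526 per hen1 library. Reads were found for 192 of the 310 miRNAs. Of these, 112 had a mean above 5 reads per 1000000 miRNA reads (RPM) in hen1 lines, and 12 were then removed because their coefficient of variation in either genotype was an outlier, which left 100 to test. Size markers and spike-in RNAs made up 15.5% to 16.8% of the reads assigned in hen1/dora libraries and 15.3% to 21.7% in hen1 libraries. The highest share was in hen1 replicate 2. The 11 miRNAs that the study used as its Ago2-enriched cohort gave 39.2% ± 0.0450 of the miRNA reads in hen1/dora lines and 38.4% ± 1.63 in hen1 lines (SD, n = 3 each, exact two-sided permutation test, p = 0.7). The study chose this cohort as insensitive to Dora, so a level share is not an independent result. The genotype was checked in total-sRNA libraries of the same background. There the 10 guides together gave 6.36%, 6.63% and 7.16% of the miRNA reads in hen1/dora lines, against 1.40%, 1.39% and 1.71% in hen1 lines (exact permutation test, p = 0.1, the smallest that 3 lines against 3 allow).

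In Ago2, loss of Dora changed few miRNAs. miR-7-5p and miR-9b-5p increased, at an adjusted p under 0.05 from edgeR's quasi-likelihood test with Benjamini-Hochberg adjustment over the 100 miRNAs, and no miRNA decreased. These 2 miRNAs are 2% of the miRNAs tested, and both are among the 9 Dora-sensitive guides that passed the filters. At an unadjusted p under 0.05, 9 miRNAs were higher and 11 lower in hen1/dora lines, and DESeq2 called 4 increased and 2 decreased. The count of 2 increased was 0 without hen1/dora replicate 2, 1 without replicate 1 of either genotype, and 5 without hen1 replicate 3. The count of 0 decreased was 1 without hen1/dora replicate 3 or hen1 replicate 1, and 3 without hen1 replicate 3. The log2 fold changes (hen1/dora over hen1) had a median of -0.02 over the 100 miRNAs and ranged from -1.44 to 1.49.

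**Figure D1:**
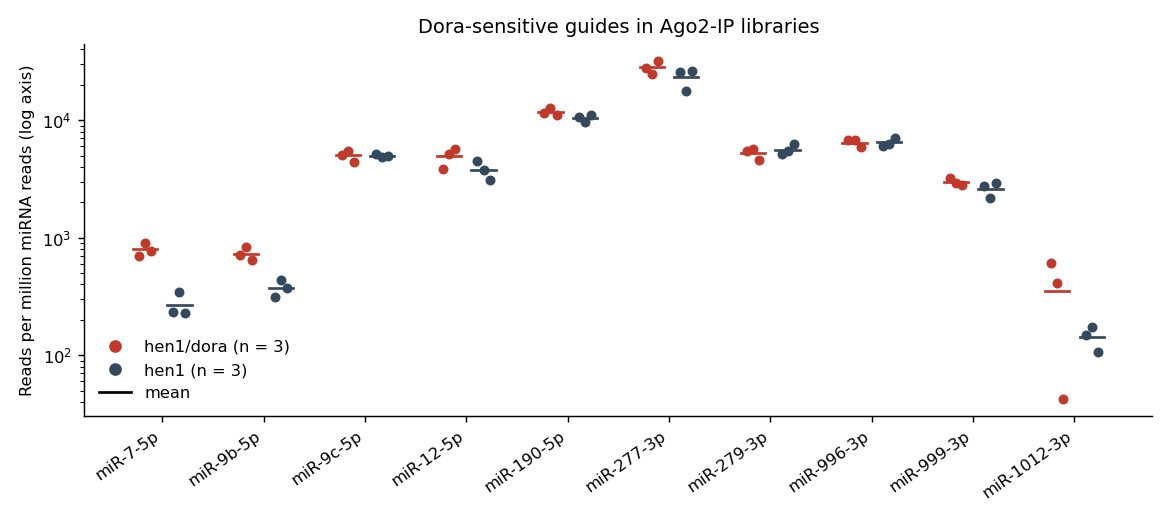
Level in RPM (log axis) of the 10 Dora-sensitive guides in each Ago2-IP library, with hen1/dora lines in red, hen1 lines in dark blue, and a bar at the mean of the 3 lines. All hen1/dora points of miR-7-5p and miR-9b-5p lie above the hen1 points, most other guides overlap, and miR-1012-3p spans 42.5 to 611 RPM within the hen1/dora lines.

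miR-7-5p, a conserved miRNA that in mammals is degraded upon pairing to the RNA Cyrano, had 705, 903 and 778 RPM in Ago2 of hen1/dora lines, against 232, 348 and 227 RPM in hen1 lines. The lowest hen1/dora line was above the highest hen1 line. The log2 fold change was 1.49 (SE, the standard error, 0.23, adjusted p = 0.00352 from edgeR). Over 16 alternatives in processing its adjusted p ranged from 1.42e-07 to 0.0544, the highest being without hen1/dora replicate 2.

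miR-9b-5p, of the conserved miR-9 family, had 711, 831 and 650 RPM in hen1/dora lines, against 316, 434 and 375 RPM in hen1 lines. Again the genotypes did not overlap. The log2 fold change was 0.89 (SE 0.21, adjusted p = 0.0471 from edgeR), close to the threshold. The adjusted p ranged from 0.000681 to 0.158 and was under 0.05 in 6 of 16 alternatives. It was above 0.05 when any single hen1/dora line was left out (0.150, 0.158 and 0.0548 without replicates 1, 2 and 3) and without hen1 replicate 1 (0.138).

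miR-9c-5p has the seed of miR-9b-5p and comes from the same cluster. It had 5097, 5510 and 4430 RPM in hen1/dora lines, against 5132, 4816 and 4978 RPM in hen1 lines, and the groups overlapped. Its log2 fold change was -0.06 (95% confidence interval -0.35 to 0.23, adjusted p = 0.908 from edgeR).

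miR-279-3p had 5476, 5637 and 4612 RPM in hen1/dora lines, against 5165, 5468 and 6230 RPM in hen1 lines. miR-996-3p, from the same transcript and with the same seed, had 6720, 6764 and 5860 RPM in hen1/dora lines, against 6080, 6273 and 7028 RPM in hen1 lines. Both overlapped, with log2 fold changes of -0.17 (interval -0.46 to 0.12) and -0.07 (interval -0.34 to 0.20).

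miR-277-3p, a guide known for its loading into Ago2 and a regulator of branched-chain amino acid metabolism in flies, was the most abundant of the 10. It had 27806, 24627 and 31933 RPM in hen1/dora lines, against 25839, 17734 and 26190 RPM in hen1 lines. The groups overlapped, and hen1 replicate 2 was the lowest of the 6 libraries. The log2 fold change was 0.21 (interval -0.13 to 0.55, adjusted p = 0.535 from edgeR).

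miR-12-5p had 3843, 5170 and 5706 RPM in hen1/dora lines, against 4523, 3750 and 3076 RPM in hen1 lines. Its log2 fold change of 0.30 (interval -0.12 to 0.72) was the highest among the 7 guides that passed the filters but not the test. miR-190-5p had 11532, 12739 and 11097 RPM in hen1/dora lines, against 10576, 9701 and 10978 RPM in hen1 lines, without overlap but with a log2 fold change of only 0.11 (interval -0.14 to 0.36, adjusted p = 0.674 from edgeR). miR-999-3p had 3197, 2910 and 2834 RPM in hen1/dora lines, against 2751, 2159 and 2919 RPM in hen1 lines. That is a log2 fold change of 0.13 (interval -0.20 to 0.46).

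miR-1012-3p was the guide that the filter on variation removed. It had 611, 408 and 42.5 RPM in hen1/dora lines, against 148, 173 and 107 RPM in hen1 lines. In hen1/dora replicate 3 it was below every hen1 line, and in the other hen1/dora lines above all of them. Tested without that filter, its log2 fold change was 1.21 (interval -0.49 to 2.91, adjusted p = 0.481 from edgeR), below that of miR-7-5p alone among the 10 guides. Its partner strand miR-1012-5p was removed by the same filter.

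For 3 of the 9 guides every hen1/dora library was above every hen1 library, and this was so for 16% of the miRNAs tested. The median log2 fold change of the 9 guides was 0.13. As a share of all miRNA reads in Ago2, the 10 guides made up 6.57%, 6.55% and 6.79% in hen1/dora lines, against 6.08%, 5.09% and 6.21% in hen1 lines. The means were 6.64% ± 0.136 and 5.79% ± 0.614 (SD, n = 3 each), a ratio of 1.15. The exact two-sided permutation test gave p = 0.1, the smallest it can give. Without hen1 replicate 2, the lowest line, the ratio was 1.08.

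The 2 guides that increased were the 2 with the least reads in Ago2 relative to total small RNA. In hen1 lines, mean RPM in Ago2-IP divided by mean RPM in total sRNA was 0.269 for miR-9b-5p and 0.713 for miR-7-5p. For the other 8 guides the ratio lay between 1.48 (miR-279-3p) and 11.8 (miR-190-5p). In hen1/dora lines it was 0.128 for miR-9b-5p and 0.162 for miR-7-5p. The part of this low ratio in their increase was not tested. The study's cohort of 15 miRNAs that are enriched in Ago1, also chosen as insensitive to Dora, was compared too. It made up 19.2% ± 0.248 of the miRNA reads in Ago2-IP of hen1/dora lines and 20.2% ± 1.88 in that of hen1 lines (SD, n = 3 each, exact permutation test, p = 0.5).

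Partner strands come from the other arm of the same hairpin. Of the 10 partner strands of these guides 9 were tested and 0 passed in edgeR, where 2% of the 100 miRNAs did. None of the 9 had an unadjusted p under 0.05, as 20% of all did, and DESeq2 called 0 of them and 6% of all. Their log2 fold changes ranged from -0.31 (miR-277-5p) to 0.52 (miR-999-5p), with a median of -0.00277. For miR-7, whose guide increased, miR-7-3p had 1568, 1219 and 1369 RPM in hen1/dora lines, against 1477, 1209 and 1763 RPM in hen1 lines. The lines overlapped, and the partner strand was more abundant in Ago2 than the guide in every library. For miR-9b, the partner strand miR-9b-3p had only 25.5, 21.9 and 21.3 RPM in hen1/dora lines, against 22.6, 25.4 and 14.5 RPM in hen1 lines. miR-9c-3p, miR-12-3p, miR-190-3p, miR-279-5p and miR-996-5p had log2 fold changes between -0.15 and 0.05.

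Another 6 mature miRNAs, the cluster mates, come from the same gene cluster as a Dora-sensitive guide. All 6 were tested and 0 passed in edgeR (2% of all 100), 0 at an unadjusted p under 0.05 (20% of all) and 0 in DESeq2 (6% of all). With 9 partner strands and 6 cluster mates, counts of 0 are near these shares for the adjusted calls. Their log2 fold changes were -0.32 for miR-306-5p, -0.06 for miR-317-3p, -0.04 for miR-79-3p, 0.05 for miR-34-5p, 0.13 for miR-304-5p and 0.15 for miR-283-5p. miR-306-5p and miR-79-3p lie between miR-9c and miR-9b. miR-79-3p had 3606, 3861 and 3427 RPM in hen1/dora lines, against 3686, 3630 and 3328 RPM in hen1 lines.

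**Figure D2:**
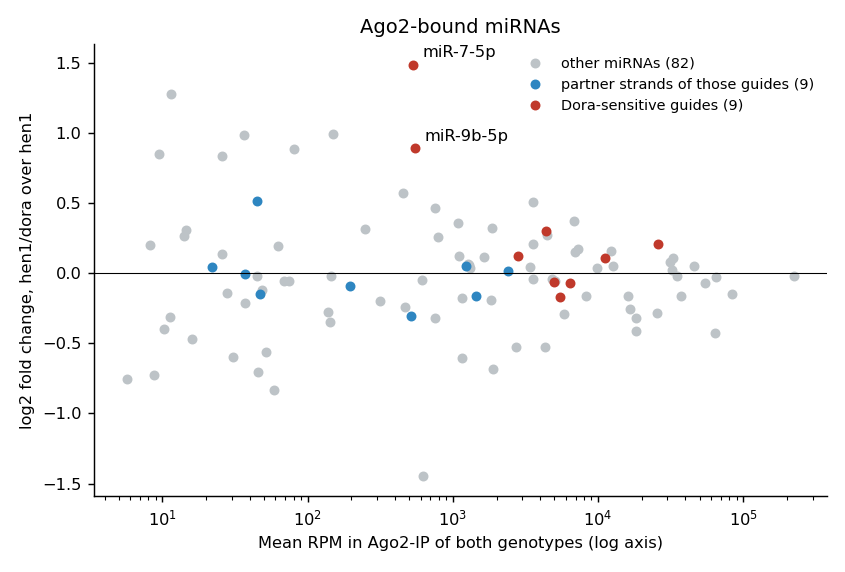
The log2 fold change of hen1/dora over hen1 for each of the 100 miRNAs tested in Ago2-IP, against the mean RPM of both genotypes (log axis), with the 9 guides in red, their 9 partner strands in blue and the other 82 miRNAs in grey. miR-7-5p (1.49) and miR-9b-5p (0.89) stand above the other guides, which lie between -0.17 and 0.30, and miR-252-5p at -1.44 is the lowest point.

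None of the 5 most abundant miRNAs of Ago2 in hen1 lines passed the test in edgeR. bantam-5p, the partner strand of the growth-promoting miRNA bantam, had 230182, 209271 and 243198 RPM in hen1/dora lines, against 235663, 193773 and 231610 RPM in hen1 lines (log2 fold change -0.02, adjusted p = 0.916 from edgeR). miR-33-5p, miR-184-5p and miR-282-3p, also among these, had log2 fold changes of -0.15, -0.02 and -0.07. bantam-3p had 54021, 52915 and 60831 RPM in hen1/dora lines, against 69539, 75874 and 70027 RPM in hen1 lines. The genotypes did not overlap, and the log2 fold change was -0.43 (SE 0.11, adjusted p = 0.0817 from edgeR). Over 16 alternatives the adjusted p of bantam-3p ranged from 0.0223 to 0.763, and it passed the threshold in 3. These were DESeq2 (adjusted p = 0.0223), the replicate number as a block (0.0277) and leaving out hen1/dora replicate 3 (0.0304).

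The remaining calls of DESeq2 were chosen for display after their values were seen. miR-252-5p had 297, 515 and 236 RPM in hen1/dora lines, against 443, 1455 and 807 RPM in hen1 lines (log2 fold change -1.44, adjusted p = 0.0829 from edgeR and 0.0200 from DESeq2). The genotypes overlapped, with hen1 replicate 2 far above the rest. miR-968-5p had 185, 213 and 210 RPM in hen1/dora lines, against 109, 60.0 and 125 RPM in hen1 lines (log2 fold change 0.99, adjusted p = 0.0829 from edgeR and 0.0120 from DESeq2). miR-275-3p had 4117, 4111 and 4472 RPM in hen1/dora lines, against 2554, 2449 and 3564 RPM in hen1 lines (log2 fold change 0.51, adjusted p = 0.122 from edgeR and 0.0284 from DESeq2).

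None of the other groups of miRNAs had a member past the test in edgeR, where 2% of the 100 miRNAs passed. At an unadjusted p under 0.05, as 20% of all had, the Ago2-enriched cohort had 1 member higher and 2 lower. The Ago1-enriched cohort had 0 higher and 3 lower. bantam-3p, of the Ago1-enriched cohort, passed in DESeq2 (adjusted p = 0.0223), where 6% of all did. The log2 fold changes of the 11 miRNAs of the Ago2-enriched cohort had a median of -0.02, from -0.53 (miR-998-5p) to 0.37 (miR-13b-2-5p), and the 15 of the Ago1-enriched cohort a median of 0.05, from -0.68 (miR-282-5p) to 0.21 (miR-276a-3p). The study chose both cohorts as insensitive to Dora, so these medians are not independent results. Of 7 miRNAs with the K-box seed, which pairs with a motif common in Notch target genes, 6 were tested, with a median of 0.17. Their extremes were miR-308-3p at -0.24 and miR-6-3p at 0.85, a rare miRNA with 4.39 to 16.5 RPM in hen1/dora lines and 4.10 to 8.71 RPM in hen1 lines. Of 14 mirtron products 12 were in the table and 5 were tested, with a median of -0.21, from -0.83 (miR-1008-3p) to 0.06 (miR-1003-3p). miR-11-3p, which the study calls enriched in Ago1, had a ratio of mean RPM in Ago2-IP to total sRNA of 1.17 in hen1 lines. Its log2 fold change was 0.11 (adjusted p = 0.643 from edgeR). miR-1002-5p, at 51.1, 57.0 and 37.8 RPM in hen1/dora lines and 12.3, 20.8 and 40.7 RPM in hen1 lines, had one of 0.99 (adjusted p = 0.175), and its lines overlapped. miR-9388-5p had 3631, 4061 and 3319 RPM in hen1/dora lines, against 5495, 5810 and 3735 RPM in hen1 lines, a log2 fold change of -0.53 (adjusted p = 0.160).

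In total sRNA and Ago1-IP the same guides rose. In total sRNA of hen1/dora over hen1 lines, all 9 that could be tested increased, with log2 fold changes from 0.93 (miR-279-3p) to 3.64 (miR-7-5p) and a median of 2.47, where 17% of 94 miRNAs increased. For Ago1-IP, Ago1 was captured with a tagged fragment of human TNRC6B, the mammalian counterpart of GW182, a protein that binds Ago1. In Ago1-IP of dora over WT lines all 9 increased too, from 2.15 (miR-279-3p) to 5.74 (miR-12-5p). Their median was 3.42, where 31.9% of 91 miRNAs increased. After periodate treatment, which leaves mainly methylated small RNAs to be sequenced, 0 of 10 passed the test in dora over WT lines (edgeR, with a median log2 fold change of 0.11, from -0.15 to 0.82), where 1% of 100 miRNAs increased.

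**Figure D3:**
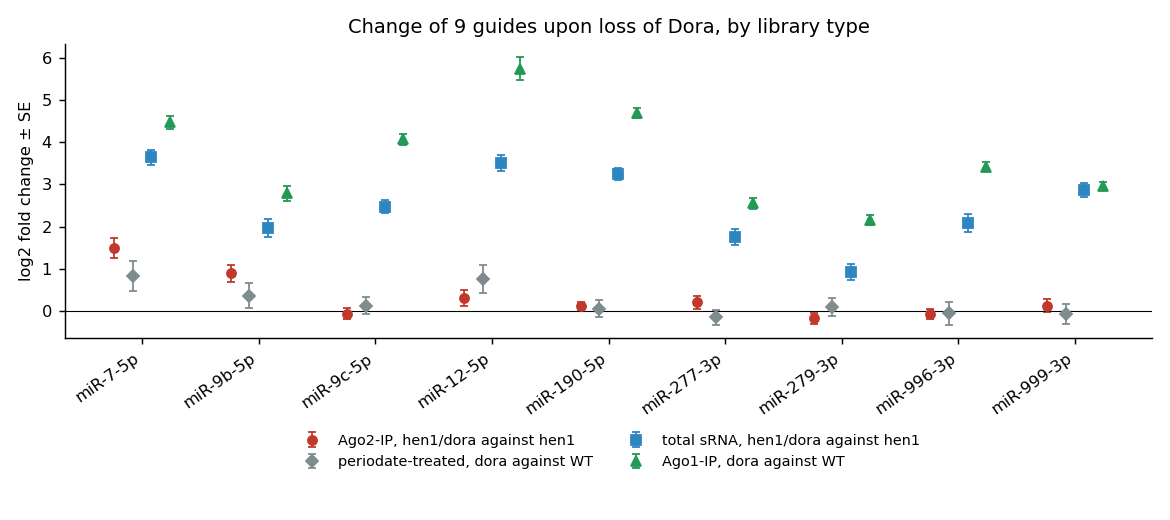
The log2 fold change upon loss of Dora (bars show the standard error) for the 9 guides tested in Ago2-IP, by library type, with Ago2-IP of hen1/dora over hen1 in red, periodate-treated dora over WT in grey, total sRNA of hen1/dora over hen1 in blue and Ago1-IP of dora over WT in green. For every guide the Ago2-IP and periodate-treated points lie below the total-sRNA and Ago1-IP points, for miR-7-5p at 1.49 and 0.82 against 3.64 and 4.48.

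Whether the change in Ago2 was smaller was tested with an interaction term in edgeR. Against total sRNA of the same background, the difference between the 2 log2 fold changes (Ago2-IP minus total sRNA) was below 0 and passed the test for 7 of the 9 guides, which were the only miRNAs in that direction, 7.87% of 89. In the other direction 22 miRNAs passed, none of them a guide. This split rests on the scaling, because TMM factors taken over all 12 libraries set the median difference of the 89 miRNAs to 0.53. With TMM factors taken within each library type the median was -0.11, and 12 miRNAs had a smaller change in Ago2 (13.5%) and 1 a larger one. All 9 guides were among the 12. With the clonal line as a block, 36 miRNAs had a larger and 8 a smaller change. The count of 22 fell to 11 without total-sRNA hen1/dora replicate 3 and to 15 without total-sRNA hen1 replicate 2, and to 1 or 2 without any other single library. For miR-190-5p the difference was -2.50 (SE 0.20, adjusted p = 3.15e-07 from edgeR), or -3.16 with factors within types. For miR-7-5p it was -1.53 (adjusted p = 0.000481), or -2.18. For miR-9b-5p it was -0.47 (adjusted p = 0.152), or -1.10 (adjusted p = 0.0108), and for miR-279-3p -0.48 (adjusted p = 0.122), or -1.12 (adjusted p = 0.00399).

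Against Ago1-IP, all 9 guides had a smaller change in Ago2, where this was so for 20.7% of 82 miRNAs. The differences (Ago2-IP minus Ago1-IP) ran from -5.34 for miR-12-5p (SE 0.38, adjusted p = 1.29e-07 from edgeR) to -1.85 for miR-9b-5p (SE 0.20, adjusted p = 7.55e-06), with a median of -2.93 beside -0.08 over the 82 miRNAs. All 9 passed in each of 17 alternatives. The number of miRNAs with a larger change in Ago2, 9, was 18 without hen1/dora replicate 2, and 15 without hen1 replicate 3 or WT replicate 1 of the Ago1-IP. DESeq2 gave 31 miRNAs with a larger and 10 with a smaller change, with the median difference over the 82 miRNAs at 0.57 in place of -0.08. miR-9388-5p and miR-34-5p also had a smaller change in Ago2, by -2.67 (adjusted p = 2.35e-06) and -0.80 (adjusted p = 0.00249). The Ago1-IP lines have Hen1, so the Argonaute protein and the genetic background cannot be told apart in this comparison.

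Against periodate-treated libraries, whose lines have Hen1, 0% of 91 miRNAs had a larger change in Ago2-IP, and none had a smaller one. The same counts came from DESeq2, and at an unadjusted p under 0.05 edgeR gave 4 larger and 2 smaller. Among the guides the difference (Ago2-IP minus treated) ran from -0.46 for miR-12-5p (95% confidence interval -1.27 to 0.36) to 0.68 for miR-7-5p (interval -0.27 to 1.62). For miR-190-5p it was 0.06 (interval -0.42 to 0.54) and for miR-277-3p 0.34 (interval -0.25 to 0.94). These intervals allow differences of more than 1 log2 unit for miR-12-5p, miR-7-5p and miR-9b-5p (interval -0.29 to 1.34). One treated dora library had 66.3% of its assigned reads in size markers and spike-ins, against 0.224% to 0.500% in the other 5 treated libraries. Without it the count was also 0 in both directions.

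For siRNAs, the deposited table holds 13063 loci that could give rise to them, with a value that sums the reads of a locus without correction for its length and scales them to the genome-mapped reads of the library. They comprise 8873 transposon fragments, 3477 strands of overlapping antisense transcripts (cisNATs), 709 merged regions where annotations overlap and 4 entries for single hairpins. Whole reads were recovered from the steps between values, with 100% of values within 0.05 reads of a whole number. The recovered locus reads numbered 43504 to 54394 per hen1/dora library and 34144 to 49831 per hen1 library. There were 0.107, 0.0954 and 0.114 locus reads per miRNA read in hen1/dora lines, against 0.102, 0.104 and 0.0992 in hen1 lines. The groups overlapped, with a ratio of 1.03 (exact two-sided permutation test, p = 0.6).

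Of the 13063 loci, 1162 were above 0 in all 6 libraries and had a coefficient of variation below 1 within both genotypes. Loss of Dora changed none of them at an adjusted p under 0.05 in limma's test on log2 of the value plus 1 (0% of 1162). At an unadjusted p under 0.05, 40 loci were higher and 39 lower in hen1/dora lines. The genotypes did not overlap at 67 loci with higher and 64 with lower values in hen1/dora lines. With edgeR on the recovered reads 5 increased and 1 decreased. The median log2 fold change (on the log2 scale of the value plus 1) was -0.01 over all loci, -0.03 for 904 cisNAT strands, 0.13 for 181 transposon fragments and 0.03 for 75 merged regions. Scaling to the total over loci instead moved the median of all loci to -0.15. Spread fell with depth, since 9.38% of the 1162 loci but 1.18% of the 338 with at least 10 reads in every library had a change of more than 1 log2 unit.

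**Figure D4:**
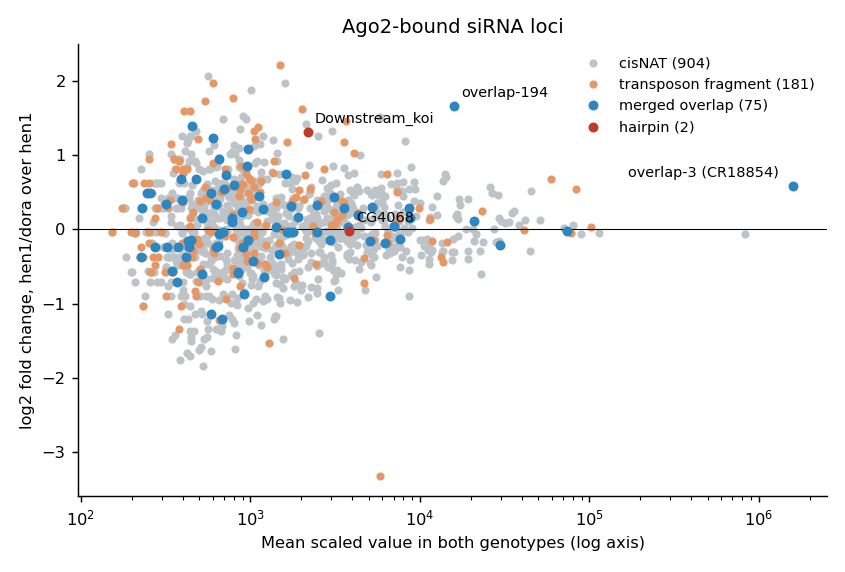
The log2 fold change of hen1/dora over hen1 for each of the 1162 loci tested in Ago2-IP, against the mean scaled value of both genotypes (log axis), colored by class of locus. The points narrow toward 0 as the value rises. Of the labelled loci, overlap-194 (1.66), Downstream_koi (1.31) and the CR18854 hairpin region overlap-3 (0.58) lie above 0, as do other abundant loci, and CG4068 lies at -0.03.

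Hairpin siRNAs come from one long transcript that folds on itself. In S2 cells a main source is the hairpin gene hpRNA:CR18854, which lies within the merged region overlap-3 (chr2L:9787285-9790745, minus strand, opposite IP3K1, an inositol trisphosphate kinase gene). A second hairpin gene is hpRNA:CR46342, at the locus listed as CG4068 (chrX:4921677-4928133, minus strand). That locus held only 20 to 35 recovered reads per library, although the study has single siRNAs of it among its most abundant. The stretch complementary to the study's probe for an siRNA of each is shown to identify these loci, in dm6 sequence.
CG4068_1: uugacuccaacaaguucgcucc
CR18854_1: gggaaacuauggaucaaa
The CG4068_1 stretch occurs 20 times on the minus strand of chromosome X, from 4921964 to 4927245, all within the hairpin locus, and the CR18854_1 stretch occurs 1 time, at chr2L:9790119-9790136 on the minus strand. The single siRNAs were not analysed here, and the values below are those of whole loci.

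overlap-3 was the most abundant locus. It had 13957, 10842 and 13399 recovered reads in hen1/dora lines, against 11242, 6775 and 7252 in hen1 lines. The fewest were in hen1 replicate 2. Scaled to genome-mapped reads the genotypes did not overlap, and the log2 fold change was 0.58 (SE 0.36, interval -0.23 to 1.40, adjusted p = 0.804 from limma). Its share of locus reads averaged 26.1% ± 1.50 in hen1/dora lines and 19.6% ± 4.06 in hen1 lines (SD, n = 3 each, exact permutation test, p = 0.1).

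CG4068 had 27, 20 and 28 reads in hen1/dora lines, against 35, 21 and 20 in hen1 lines (log2 fold change -0.03, interval -0.85 to 0.79). That interval is not adjusted for the 1162 loci tested, so changes beyond it could also go uncalled at this depth. At cisNAT+1573 a log2 fold change of 1.97 (SE 0.33) had an adjusted p of 0.204 from limma. The authors' settings weight reads that align to many places, while the values came back as whole reads. How such reads were counted at this locus, whose siRNA sequence is repeated, was not tested. The hairpin listed downstream of koi (chr2R:6817240-6817857), a nuclear envelope gene, had 21, 16 and 24 reads in hen1/dora lines, against 15, 8 and 4 in hen1 lines. All its hen1/dora values were above all its hen1 values, as at 67 of the 1162 loci tested. The log2 fold change was 1.31 (SE 0.44, adjusted p = 0.596 from limma and 0.274 from edgeR). CR46340 (chr3L:21576460-21576661) and the hairpin downstream of CG4770 (chr3R:19920693-19920876) had 0 reads in all 6 libraries, which allows up to 3 reads per library by counting error alone.

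cisNAT siRNAs come from the stretch where 2 genes are transcribed across each other. They gave 58.0% ± 1.46 of the locus reads in hen1/dora lines and 64.4% ± 3.44 in hen1 lines (SD, n = 3 each). The most abundant was cisNAT-1355 (chr3R:11971694-11972895, minus strand), where Tango9 and GC2, which encodes a glutamate carrier, overlap. It had 5996, 5090 and 5124 reads in hen1/dora lines, against 5854, 7455 and 3789 in hen1 lines (log2 fold change -0.07, interval -0.82 to 0.68). The highest value was in hen1 replicate 2, the library with the most marker and spike-in reads. Among treated libraries its scaled value was 1670630 in the dora library with 66.3% marker and spike-in reads and 17984 to 24164 in the others, and the part of the markers in its level was not tested.

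Transposon siRNAs silence mobile elements in somatic cells. Transposon fragments gave 11.6% ± 0.339 of the locus reads in hen1/dora lines and 11.6% ± 0.381 in hen1 lines (SD, n = 3 each). All 8873 fragments were assigned to one of 122 families from the RefSeq annotation. The family with the most reads was INE-1, a short nonautonomous element, at 4.17%, 4.25% and 4.06% in hen1/dora lines, against 4.49%, 5.59% and 4.24% in hen1 lines. A single INE-1 fragment in Dmtn (FBti0063873-, chr3R:6397779-6397873) held 737, 668 and 670 reads in hen1/dora lines, against 693, 884 and 459 in hen1 lines (log2 fold change 0.03). Its highest count was in hen1 replicate 2, the library with the most marker and spike-in reads. Among treated libraries its scaled value was 192493 in the dora library with 66.3% marker and spike-in reads and 7177 to 10301 in the others. The part of the markers in its level, and so in that of INE-1, was not tested. Among families the LTR retrotransposon 1731 followed, at 2.36%, 2.47% and 2.32% in hen1/dora lines, against 1.74%, 1.39% and 2.21% in hen1 lines, with no overlap. Most of these reads lay at a single insertion, FBti0060280, listed by strand. Its plus entry gave 1.36%, 1.37% and 1.28% in hen1/dora lines, against 1.00%, 0.751% and 1.39% in hen1 lines. Its minus entry gave 0.954%, 1.06% and 0.990%, against 0.714%, 0.605% and 0.761%. The 41 tested fragments of 297, another LTR retrotransposon, had 0.06 as their median log2 fold change, and the 18 of blood 0.53. Fragments of a family share sequence, so they are not separate measurements.

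**Figure D5:**
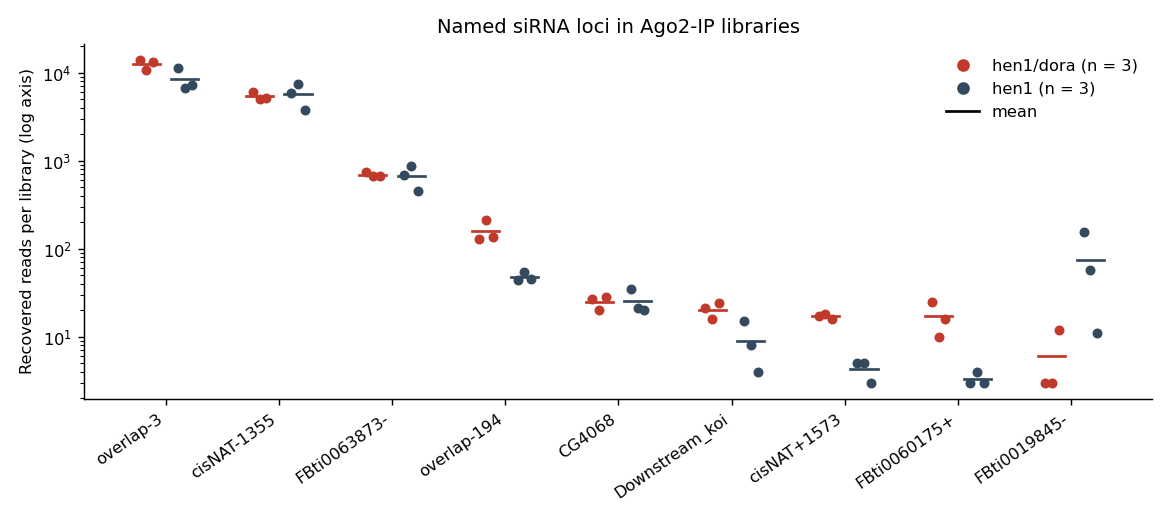
Recovered reads per library (log axis) of 9 named siRNA loci in Ago2-IP, with hen1/dora lines in red, hen1 lines in dark blue, and a bar at the mean of the 3 lines. overlap-3 holds 6775 to 13957 reads, most other named loci fewer than 250, and FBti0019845- spans 11 to 157 reads within the hen1 lines.

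overlap-194 (chr2R:6256172-6322173) is a merged region of 66002 bases that holds fragments of many transposons. It had 129, 212 and 137 reads in hen1/dora lines, against 44, 55 and 45 in hen1 lines. All hen1/dora lines were above all hen1 lines, with a log2 fold change of 1.66 (SE 0.39). It did not pass in limma over the 1162 loci (adjusted p = 0.465), but did with edgeR on recovered reads (adjusted p = 2.41e-06) and in limma among the 338 deeper loci (adjusted p = 0.00768). In Ago1-IP of dora over WT lines its log2 fold change was 4.20 (adjusted p = 0.00167 from limma), the 1 locus of 228 that passed there. The study's own test, on more loci, called several increased in Ago1-IP, the CG4068 and CR18854 hairpins among them. In limma CG4068 (log2 fold change 1.29) and overlap-3 (1.03) each had an adjusted p of 0.376 there. In treated libraries the log2 fold change of overlap-194 was 2.46 (adjusted p = 0.601 from limma). The scaled values there were 9645, 115079 and 79919 in dora lines, against 8374, 5282 and 12081 in WT lines. The lowest dora value was that of the library with 66.3% marker and spike-in reads. The difference (Ago2-IP minus Ago1-IP) was -2.54 (SE 0.51, adjusted p = 0.0184 from limma).

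The loci with the smallest unadjusted p held few reads. cisNAT+1573 (chr2R:9841079-9841163), where Marc and Vamp7 overlap, had 17, 18 and 16 reads in hen1/dora lines, against 5, 5 and 3 in hen1 lines (log2 fold change 1.97, adjusted p = 0.204 from limma and 0.0358 from edgeR). The jockey fragment FBti0060175+ (chr2L:22278132-22278328) had 25, 10 and 16 reads in hen1/dora lines, against 3, 4 and 3 in hen1 lines (log2 fold change 2.22, adjusted p = 0.204 from limma and 0.0139 from edgeR). A fragment of the LTR element blood, FBti0019214- (chr2L:20576274-20583683), had 8, 5 and 4 reads in hen1/dora lines, against 2, 2 and 1 in hen1 lines (log2 fold change 1.73, adjusted p = 0.465 from limma).

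In the other direction, the fragment FBti0019845- of the DNA transposon HB (chr2L:21705310-21706713), within nolo, had 3, 3 and 12 reads in hen1/dora lines, against 157, 57 and 11 in hen1 lines. Its log2 fold change was -3.32 (adjusted p = 0.465 from limma and 2.41e-07 from edgeR), and hen1 replicate 3 was no higher in reads than the highest hen1/dora line. cisNAT+1273 (chr2R:14857446-14857502) had 3, 1 and 1 reads in hen1/dora lines, against 4, 8 and 4 in hen1 lines. cisNAT+594 (chr2L:19579092-19579131) had 1, 2 and 2 reads in hen1/dora lines, against 6, 6 and 3 in hen1 lines. The other edgeR calls, named after their values were seen, were cisNAT+303 at Creld and Nhe1 (log2 fold change 1.08, adjusted p = 0.0358) and cisNAT+338 at PLCXD and JhI-21 (log2 fold change 1.94, adjusted p = 0.000548).

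Against Ago1-IP, the change upon loss of Dora differed at 4 of 204 loci (1.96%), and in all 4 it was smaller in Ago2. Beside overlap-194 these were cisNAT+304 at zfh2 and Tdg, cisNAT+370 at Myc, the growth regulator, and CG12535, and cisNAT+1620 at gro, the corepressor Groucho, and Exo84. For cisNAT+304 (chr4:538331-540874) the log2 fold change was -0.61 in Ago2-IP and 2.12 in Ago1-IP, a difference of -2.73 (adjusted p = 0.0163 from limma). For cisNAT+370 (chrX:3387943-3391697) it was -0.90 and 1.50, a difference of -2.40 (adjusted p = 0.0163), and for cisNAT+1620 (chr3R:26049730-26049911) -0.08 and 1.86, a difference of -1.95 (adjusted p = 0.0408). In recovered reads of the Ago1-IP, cisNAT+1620 had 5, 4 and 5 in dora lines, against 1, 1 and 1 in WT lines, so that its call rests on single reads. cisNAT+304 had 32, 53 and 22 in dora lines, against 8, 4 and 7 in WT lines, and cisNAT+370 had 34, 45 and 29 in dora lines, against 9, 12 and 9 in WT lines. overlap-194 had 74, 109 and 63 in dora lines, against 5, 2 and 4 in WT lines. The count of 4 loci was 0 among the 28 loci with at least 10 reads in every library and 0 with the replicate number as a block. It was 0 without any one of hen1/dora replicate 3, hen1 replicate 3 or WT replicate 3 of the Ago1-IP. It was 1 without hen1/dora replicate 1 and 2 without hen1 replicate 2, and 7 without WT replicate 2. Against treated libraries the change differed at 0% of 941 loci in limma, with 25 larger and 8 smaller in Ago2-IP at an unadjusted p under 0.05.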

How the data were processed

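The authors trimmed reads with cutadapt, matched their first bases to a list of miRNA sequences and deposited counts of reads per miRNA (Ago2-IP, total sRNA, Ago1-IP and periodate-treated libraries). For loci they aligned reads to dm6 with STAR 2.4 and summed them with Cuffdiff 2.2.1. Their settings weight reads that align to several places. They deposited the sums as a signal, relative to all genome-mapped reads. That signal was read back into whole reads for Ago1-IP and Ago2-IP but not for treated libraries. The Ago2-IP columns carry a genotype and number, and their library type comes from the table named in the samples' descriptions. Columns left unassigned: 0.

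The tools were edgeR 4.0.16, DESeq2 1.42.0 and limma 3.58.1 under R 4.3.3. miRNAs had a mean above 5 RPM in the reference genotype and a coefficient of variation within 1.5 interquartile ranges of the quartiles, a filter modelled on that of the study. For counts the test was edgeR's quasi-likelihood F test with TMM factors, and for locus values limma's on log2 (value plus 1). The threshold was a Benjamini-Hochberg adjusted p of 0.05. Library types were compared with an interaction term, taking libraries as independent. Single values had two-sided exact permutation tests (20 arrangements, smallest p 0.1). Intervals are 95%. The steps were tested on simulated data.

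Same-numbered hen1/dora and hen1 lines are different clones and were not paired. Same-numbered Ago2-IP and total-sRNA libraries were taken to be one line, from their labels. Their deviations from the group means correlated by 0.27, 0.49 and 0.42 in hen1/dora lines and by 0.08, 0.55 and 0.10 in hen1 lines, so the libraries were not fully independent. Replicate miRNA counts differed beyond sampling noise in each pair (chi-square per degree of freedom 35.0 to 162). The members and lists were chosen with earlier results of these data known. Named features are the Dora-sensitive guides, their partner strands and cluster mates, miRNAs past the threshold, the 5 most abundant miRNAs, features the study names, all hairpins, the most abundant locus of each class, the 3 loci per direction with the smallest p where none passed, and the extremes of each list. Alternatives were other scalings, filters, pseudocounts and tools, the replicate block and leaving out each library.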

Additional observations from a re-analysis of the deposited data

Results flagged for a closer look

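The change upon loss of Dora differed between Ago2-IP and another library type, by the interaction test, for the following. Against total sRNA of the hen1 background, 29 miRNAs differed. The differences in log2 fold change (Ago2-IP minus total sRNA) were -2.56 for miR-12-5p, -2.50 for miR-190-5p, -2.11 for miR-999-3p, -1.90 for miR-9c-5p, -1.53 for miR-7-5p, -1.56 for miR-996-3p and -0.90 for miR-277-3p. The other 22 were positive and came with a median difference of 0.53 over all miRNAs, which was -0.11 with TMM factors within each library type.

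Against Ago1-IP, 26 miRNAs differed. For the guides, the differences (Ago2-IP minus Ago1-IP) were -5.34 for miR-12-5p, -4.52 for miR-190-5p, -4.07 for miR-9c-5p, -2.77 for miR-999-3p, -2.93 for miR-7-5p, -3.44 for miR-996-3p, -2.27 for miR-277-3p, -2.27 for miR-279-3p and -1.85 for miR-9b-5p. Of the other 17 miRNAs, 9 had a positive difference, up to 1.07 for miR-965-5p, and 8 a negative one. Against periodate-treated libraries, 0 miRNAs differed in edgeR or DESeq2, and 6 in edgeR at an unadjusted p under 0.05.

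Among loci, the differences (Ago2-IP minus Ago1-IP) were -2.73 for cisNAT+304, -2.54 for overlap-194, -2.40 for cisNAT+370 and -1.95 for cisNAT+1620.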

How the results depend on the processing

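The number of miRNAs that increased in Ago2 was 2. It was 1 with DESeq2 size factors in edgeR, with no filter on low counts, with the 5 RPM minimum taken over all libraries, with a minimum of 50 RPM, with no filter on variation and with spike-in reads as library size (added after seeing the data), 4 with DESeq2, and 0 to 5 when 1 library was left out. The number that decreased was 0. It was 2 with DESeq2, 1 with spike-in reads and 0 to 3 when 1 library was left out. Same-numbered hen1/dora and hen1 libraries did not pair (correlations -0.04, 0.26 and 0.39 for miRNAs, and not every library correlated best with its own number). With the replicate block 3 miRNAs increased and 5 decreased. The number of loci changed in Ago2 was 0. It was 1 higher among loci with at least 10 reads, 39 higher and 20 lower with no filter on low values, 5 higher and 1 lower with edgeR, and 0 under the replicate block and without any 1 library. Against total sRNA, 22 miRNAs had a larger and 7 a smaller change in Ago2. Larger changes numbered 1 and smaller ones 12 with TMM within types, with all miRNA reads as library size and with no filter on variation. DESeq2 gave 7 larger changes, the replicate block 34 and the clonal line block 36. Leaving out 1 library gave 1 to 15 larger and 7 to 14 smaller changes. Against Ago1-IP, 9 miRNAs had a larger and 17 a smaller change, 31 and 10 with DESeq2, and 6 to 18 a larger one when 1 library was left out. The 4 loci with a smaller change than in Ago1-IP became 0 with the replicate block and among loci with at least 10 reads, and 0 to 7 when 1 library was left out, which gave 0 to 1 larger ones. Against treated libraries 1 locus had a larger change when scaled to the total over loci. The causes were not tested. Of 1682 values of named features under alternatives, 1607 kept their side of the threshold, 37 lost it, 38 gained it and 0 called ones changed sign. The shares of the Dora-sensitive guides and of locus reads moved by less than the spread between lines. With 34144 to 54394 locus reads per library, most loci held few reads, which limits what could be detected.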
